A study of Mus musculus with 9 samples.

Results

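The interferon regulatory factors (IRFs) are a family of transcription factors that share a DNA-binding domain and read GAAA-rich elements in the promoters of interferon and immune genes. The members described were listed by gene symbol, with a rule that uses no measured value, as Irf1, Irf2, Irf3, Irf4, Irf5, Irf7, Irf8 and Irf9, which are 8 of the 55487 genes in the count table. They were measured by bulk RNA-seq in B16F10, a cultured melanoma line of the C57BL/6 mouse. All groups share this line and were harvested after 6 h: one was kept in media alone, one received 50 ng/mL interferon gamma (IFNγ), and one received the same IFNγ together with 50 nM FK866, an inhibitor of NAMPT, the enzyme of the NAD salvage pathway. The protocol words the IFNγ as mouse or human and cites a mouse product. Each group has 3 libraries, and every title, with any treatment, carries the word Control with a number, 3, 4 or 5. No group received FK866 without IFNγ, so the design shows FK866 only on the background of IFNγ.

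IFNγ binds a receptor that carries the kinases JAK1 and JAK2. Their signal ends at GAS elements, among them one in the promoter of Irf1, whose product then drives a later wave of genes such as those of antigen presentation. IRF9 is the DNA-binding subunit of ISGF3, the complex that binds interferon-stimulated response elements (ISREs). IRF2 binds much the same sites as IRF1 and is best known as its antagonist. IRF3 and IRF7 wait in the cytoplasm until TBK1 or a related kinase phosphorylates them below nucleic acid sensors, and then switch on type I interferon genes, while IRF5 acts below Toll-like receptors. IRF4 and IRF8 are best known from lymphoid and myeloid cells, where they bind DNA together with partners such as PU.1 and BATF, and IRF4 is also known in melanocytes as a partner of MITF at the tyrosinase gene.

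The libraries held 15317003 to 18466972 counts. Levels are given as CPM, the counts of a gene scaled to a common library size, after TMM, a normalisation that brings the bulk of genes to the same level. The marker sums in this paragraph are the exception, as they were scaled by library totals alone, without TMM. Melanocyte genes were present in every library at a summed 16400 to 19800 CPM, with all 13 of 13 markers detected. Of 18 leukocyte markers, 12 to 13 were at 0 counts in each group, Ptprc, Itgam and Csf1r among them in every library. The summed level of the 18 was 5.57 to 13.6 CPM in media, 5.58 to 11.5 after IFNγ and 5.88 to 11 when FK866 was added. Cd68 was the highest of them in each group. As the samples are bulk RNA, fewer cells that express a gene and less of its RNA in each cell cannot be told apart. Of the 2 leukocyte markers with enough counts to be tested, 0 were called with IFNγ, and of the 3 fibroblast, endothelial and keratinocyte markers tested, Col1a2 was lower (log2 fold change -1.69, adjusted p = 0.00952).

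The start regions of 4 of the Irf genes are shown: 3 that hold a match to the GAS element of the IFNγ pathway, and Irf7, which responded to IFNγ and holds none. Capitals mark matches to a GAS element (TTCNNNGAA) or an ISRE (GAAA, any 2 bases, GAAA, searched on both strands). The stretches are printed 5′ to 3′ along the gene, from RefSeq on GRCm38.p6, and end before the first annotated exon. Distances are counted from the RefSeq start site, which for Irf2 is 46739745, inside the gene, so that its printed stretch stops short of that site.
Irf1 chr11:53769764-53770013 (plus strand): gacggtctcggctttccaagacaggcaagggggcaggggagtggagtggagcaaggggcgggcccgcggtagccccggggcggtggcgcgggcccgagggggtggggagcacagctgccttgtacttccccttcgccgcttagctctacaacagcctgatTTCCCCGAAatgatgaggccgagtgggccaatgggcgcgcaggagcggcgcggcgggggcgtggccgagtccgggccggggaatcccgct
Irf2 chr8:46739495-46739731 (plus strand): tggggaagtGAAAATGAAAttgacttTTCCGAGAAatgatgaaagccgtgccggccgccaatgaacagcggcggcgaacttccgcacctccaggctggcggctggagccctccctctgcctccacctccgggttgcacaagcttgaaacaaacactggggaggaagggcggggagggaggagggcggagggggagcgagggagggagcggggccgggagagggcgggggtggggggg
Irf7 chr7:141266482-141266674 (minus strand): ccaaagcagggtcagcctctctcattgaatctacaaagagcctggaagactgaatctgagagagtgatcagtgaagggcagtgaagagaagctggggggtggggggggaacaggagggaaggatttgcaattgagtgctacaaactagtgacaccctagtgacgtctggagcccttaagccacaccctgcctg
Irf8 chr8:120736108-120736357 (plus strand): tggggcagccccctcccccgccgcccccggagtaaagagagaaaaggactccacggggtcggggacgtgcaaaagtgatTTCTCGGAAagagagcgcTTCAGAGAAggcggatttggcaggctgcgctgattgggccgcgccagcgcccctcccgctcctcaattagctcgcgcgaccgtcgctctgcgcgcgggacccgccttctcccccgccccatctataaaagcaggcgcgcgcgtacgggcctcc
In Irf1 the GAS match TTCCCCGAA lay 90 to 82 bases before the RefSeq start. In Irf2 the ISRE match GAAAATGAAA lay 241 to 232 bases and the GAS match TTCCGAGAA 224 to 216 bases before the start. Irf8 had 2 GAS matches, TTCTCGGAA at 171 to 163 bases and TTCAGAGAA at 153 to 145 bases. No match to GAS, ISRE or the NF-kB motif was found in the 250 bases before the start of Irf3, Irf4, Irf5, Irf7 or Irf9, which says only that these letters are not in those windows. The NF-kB motif was matched in Irf1 at 13 to 4 bases and in Irf2 at 17 to 8 bases before the start, and is not capitalised; the match in Irf2 runs past the end of the stretch shown. Across 32851 such windows of 27025 mouse genes, 7.02% held a GAS match, 2.98% an ISRE match and 7.25% an NF-kB match, so that a GAS match in a window is not rare.

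**Figure D1:**
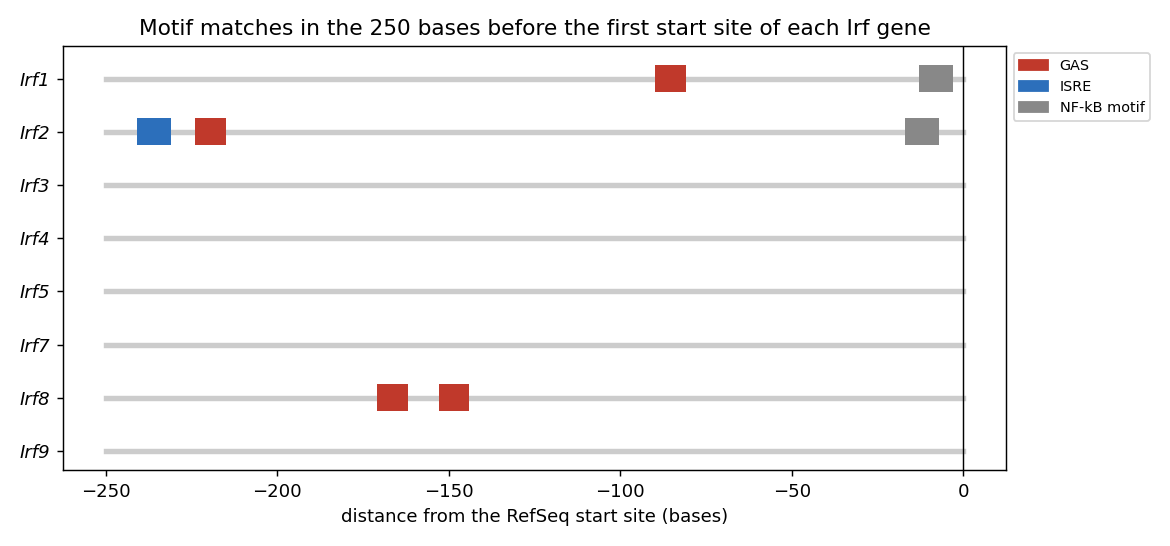
Matches to the GAS, ISRE and NF-kB motifs in the 250 bases before the first RefSeq start site of each Irf gene, with the distance from the start in bases on the x axis and 1 line per gene. Irf1, Irf2 and Irf8 carry a GAS match, Irf2 also carries the ISRE match, and the other 5 genes carry none of these motifs.

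After 6 h of IFNγ, 5 of the 8 Irf genes were higher than in media and none was lower (edgeR's quasi-likelihood test, p adjusted over all genes by Benjamini-Hochberg, threshold 0.05). Over all 15237 genes tested, 2.8% were called higher and 0.499% lower. The genes called were Irf1, Irf2, Irf7, Irf8 and Irf9. Those not called were Irf3, Irf4 and Irf5. The median log2 fold change of the 8 genes was 2.78, against -0.008 for all genes tested. All 8 passed the filter on low counts. With the title number as a block in the fit, the same 5 genes were called, where 8.12% of all genes were called higher and 6.14% lower. Of the 8 genes, 0 were lower at an unadjusted p under 0.05 in edgeR without the block, in DESeq2 and in limma-voom, and 1, Irf4, was with the block.

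**Figure D2:**
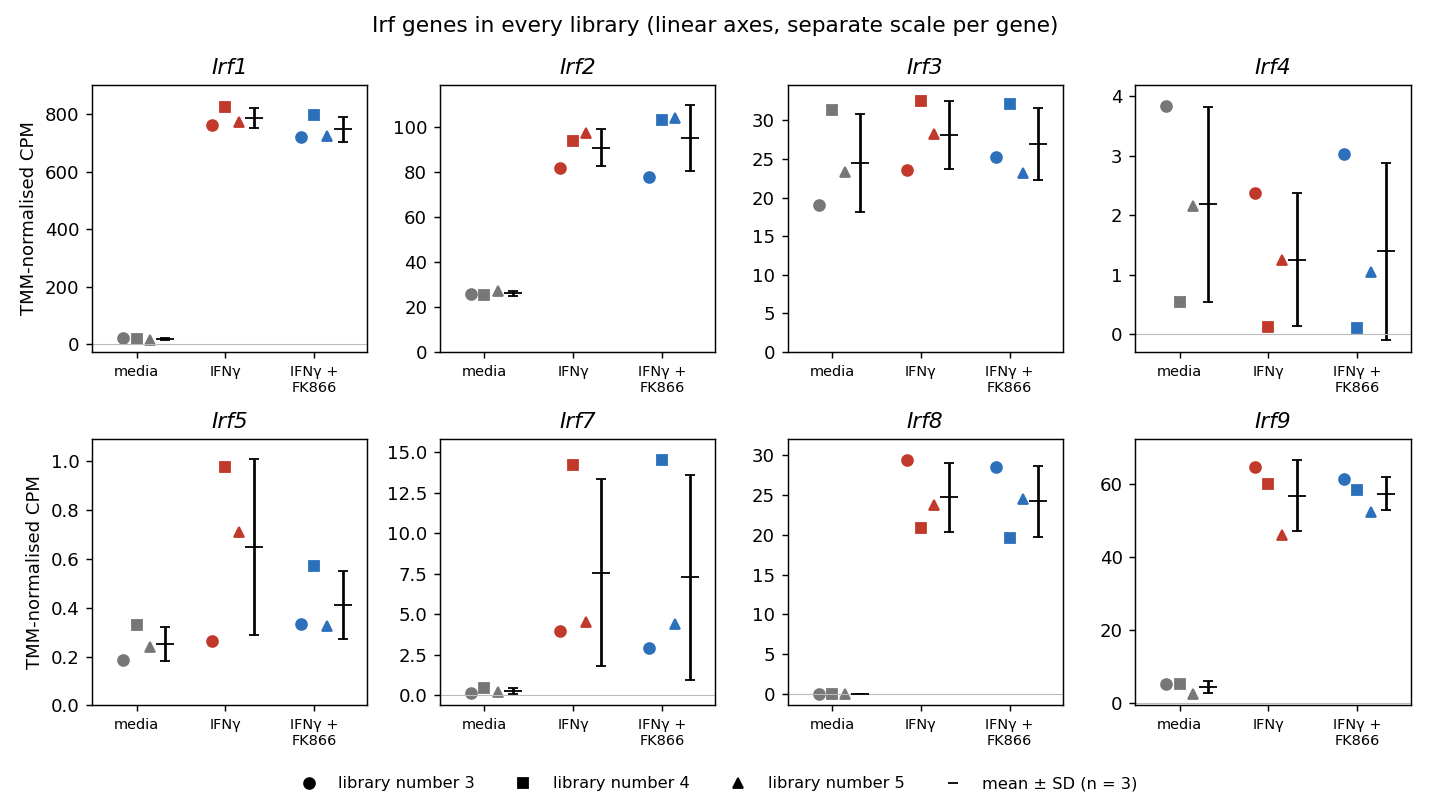
TMM-normalised CPM of each Irf gene (y axis, linear, 1 scale per gene) in the 9 libraries by treatment, with marker shape for the title number and bars for mean ± SD (n = 3). Irf1, Irf2, Irf7, Irf8 and Irf9 have every IFNγ library above every media library, and the libraries with IFNγ and those with IFNγ plus FK866 overlap for all 8 genes.

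Irf1, the activator that IFNγ signalling switches on directly, lies on chromosome 11 at 53770014 to 53778374 (GRCm38, plus strand). In libraries 3, 4 and 5 its level was 20.6, 17.3 and 14.0 CPM in media and 762, 826 and 773 CPM with IFNγ. Each IFNγ library thus stood far above each media library, and the IFNγ libraries lay close together, at 787 ± 34.2 CPM (SD, n = 3) against 17.3 ± 3.31. The log2 fold change was 5.51 (SE 0.16, 95% interval 5.15 to 5.87, adjusted p = 3.97e-08). By title number the difference was 5.21, 5.58 and 5.79. A second gene model, Gm17334, overlaps Irf1 over 135 exon bases, 3.4% of its exons, and had at most 9 counts in a library.

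Irf2, the antagonist of IRF1, lies on chromosome 8 at 46739732 to 46847458 (plus strand). Its media libraries read 25.5, 25.3 and 27.2 CPM, and its IFNγ libraries 81.5, 93.6 and 97.1 CPM. Irf2 therefore rose from a steadier base than Irf1 and by less: 3.49-fold, a log2 fold change of 1.80 (SE 0.13, adjusted p = 3.17e-05), with 1.67, 1.89 and 1.84 by title number. Beside it, on the other strand, Gm16675, a long non-coding RNA gene whose exon covers the first 21 bases of the Irf2 stretch shown, had 9, 19 and 15 counts in media and 55, 50 and 80 with IFNγ. That was a log2 fold change of 2.17 (SE 0.32, adjusted p = 0.00377), and the 2 genes share no exon bases. The gene models Gm45479, Gm31172 and Gm45481, which lie within Irf2 on the other strand, had 0 counts in every library.

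Irf9, the DNA-binding subunit of ISGF3, lies on chromosome 14 at 55603571 to 55610030. It read 5.08, 5.15 and 2.39 CPM in media and 64.5, 59.8 and 45.8 CPM with IFNγ. The groups were far apart, and library 5 was the lowest in both. The rise was 13.4-fold, a log2 fold change of 3.75 (SE 0.27, adjusted p = 2.41e-05), with 3.66, 3.54 and 4.26 by title number. Rnf31, a subunit of the linear ubiquitin ligase, lies upstream on the same strand and shares 123 exon bases with Irf9, 2.28% of the exons of Irf9. It went from 14.5 ± 2.05 to 48.2 ± 2.16 CPM (SD, n = 3), which is 1.73 on the log2 scale (SE 0.13, adjusted p = 3.05e-05).

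Irf8, best known as a factor of myeloid cells and induced by IFNγ in many others, lies on chromosome 8 at 120736358 to 120756694. No read was counted for it in any media library, among 50647265 counts in all, which allows a level of up to 0.0589 CPM (3 counts in the 3 media libraries together). IFNγ brought it to 447, 343 and 401 counts, or 29.4, 20.9 and 23.8 CPM. The gene thus went from undetected to a middle level, 24.7 ± 4.35 CPM (SD, n = 3), at least 417-fold higher than in media (adjusted p = 6.3e-06). The overlapping gene model Gm20388 shares no exon bases with Irf8 and had 0 counts in every library. Of the leukocyte markers, Ptprc and Csf1r were at 0 counts in the same libraries, but others were detected in every library. Cd68 had 52 to 207 counts in a library, Fcer1g 12 to 22, Lyz2 3 to 11 and Cd79a 3 to 9. The floor of 0.0589 CPM for Irf8 covers counting error only.

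Irf7, the factor that amplifies type I interferon, lies on chromosome 7 at 141262706 to 141266481 on the minus strand. Its exons share 45 bases, 1.19% of their length, with Phrf1 on the other strand, which had 1735 to 2726 counts in a library and a log2 fold change of -0.06 with IFNγ. Irf7 had 2, 8 and 3 counts in media, or 0.126, 0.438 and 0.179 CPM. With IFNγ it had 60, 233 and 76 counts, or 3.95, 14.2 and 4.50 CPM. Every IFNγ library was above every media library, but library 4 was higher than the others in both groups, and the spread of 7.55 ± 5.76 CPM (SD, n = 3) is wide. The rise was 29.1-fold, a log2 fold change of 4.86 (SE 0.87, adjusted p = 0.0135), and by title number 4.98, 5.02 and 4.65. With the number as a block the change was 4.91 (SE 0.29, adjusted p = 5.91e-11). The call was lost without media library 3 (4.56, adjusted p = 0.0674), without media library 5 (4.68, 0.074) and with limma-voom (4.67, 0.112).

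Irf3, the constitutive partner of Irf7 in sensing, lies on chromosome 7 at 44997648 to 45002848. It read 19.0, 31.4 and 23.3 CPM in media and 23.6, 32.5 and 28.3 CPM with IFNγ. The 2 groups overlapped, and the difference of 0.20 on the log2 scale (SE 0.21, adjusted p = 1) did not pass the test. With the number as a block it was 0.21, with an interval of 0.01 to 0.41 and adjusted p = 0.191. Its neighbours on either side, Bcl2l12 (log2 fold change -0.06) and Scaf1 (0.00), were likewise not called.

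Irf5, which acts below Toll-like receptors, lies on chromosome 6 at 29526625 to 29541871 and was near the limit of counting. It had 3, 6 and 4 counts in media and 4, 16 and 12 with IFNγ, or 0.252 ± 0.0711 and 0.650 ± 0.360 CPM (SD, n = 3). The groups overlapped through library 3, and the log2 fold change of 1.34 (SE 0.56) had an unadjusted p of 0.0398 and an adjusted p of 0.433. Its exons share 411 bases, 14.1% of their length, with Tnpo3, a nuclear import receptor gene with 3608 to 4540 counts in a library.

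Irf4, the partner of MITF in melanocytes, lies on chromosome 13 at 30749226 to 30766976. It had 61, 10 and 36 counts in media and 36, 2 and 21 with IFNγ, or 2.18 ± 1.64 and 1.25 ± 1.12 CPM (SD, n = 3). The groups overlapped widely, and the log2 fold change was -0.80 (SE 1.07, adjusted p = 1). Within each title number the IFNγ library was the lower, by -0.69, -2.17 and -0.79. With the number as a block the change was -0.92 (SE 0.37, interval -1.69 to -0.15, adjusted p = 0.116) and still not called. Mitf itself went from 807 ± 68.4 to 335 ± 60.5 CPM, which is -1.27 on the log2 scale (SE 0.15, adjusted p = 0.000773). It was the 1 of 13 melanocyte genes called lower, with 0 higher. With the block 5 were lower and 1 higher, beside 6.14% and 8.12% of all genes.

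**Figure D3:**
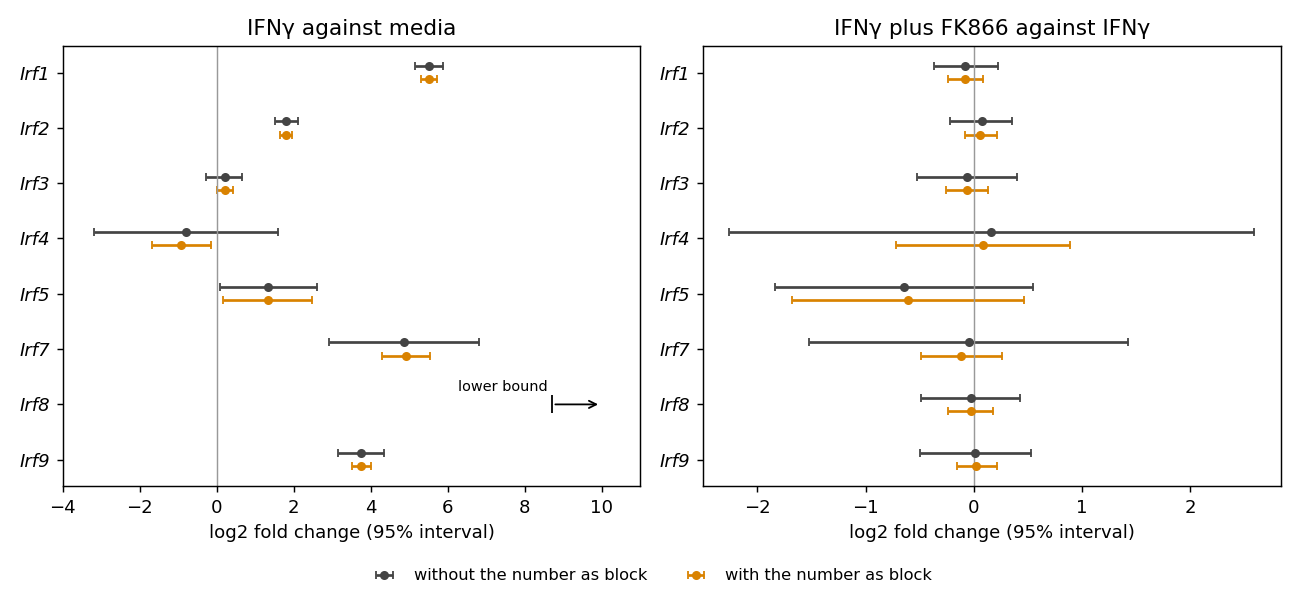
Log2 fold change with its 95% interval (x axis) for each Irf gene, for IFNγ against media (left) and IFNγ plus FK866 against IFNγ (right), from edgeR without and with the title number as a block. For Irf8 on the left an arrow starts at the lower bound, since no media library had a count. On the right every interval spans 0.

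Adding FK866 to IFNγ changed no Irf gene past the test. Of the 8 genes, 0 were called higher and 0 lower by edgeR, where 0% of all genes were called in either direction, and 0 had an unadjusted p under 0.05 in edgeR, with or without the block, in DESeq2 or in limma-voom. Over all genes 88 had an unadjusted p under 0.05 without the block. With the block 2 genes (0.0131%) were called higher and 1 (0.00656%) lower, none of them an Irf gene. The smallest adjusted p of an Irf gene with the block was 0.987.

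The libraries with IFNγ plus FK866 read 719, 796 and 725 CPM for Irf1, 77.9, 103 and 104 for Irf2, and 61.2, 58.2 and 52.3 for Irf9. Irf8 read 28.5, 19.6 and 24.5 CPM, and Irf7 2.90, 14.5 and 4.39. All of these overlapped the libraries with IFNγ alone. How large a difference the data leave room for is given by the 95% intervals, which depend on the fit. Without the block they were -0.37 to 0.22 for Irf1, -0.22 to 0.35 for Irf2, -0.53 to 0.40 for Irf3 and -2.26 to 2.59 for Irf4. For Irf5 the interval was -1.84 to 0.55, for Irf7 -1.52 to 1.42, for Irf8 -0.49 to 0.43 and for Irf9 -0.50 to 0.53. With the block, which takes out the differences between title numbers, they were narrower. For Irf1 the log2 difference was -0.08, with an interval of -0.24 to 0.08 with the block, and each of the 3 numbers gave a slightly lower value with FK866 (-0.08, -0.05 and -0.09). The block interval was -0.08 to 0.21 for Irf2, -0.24 to 0.18 for Irf8 and -0.16 to 0.21 for Irf9. It was -0.26 to 0.13 for Irf3 and wider, -0.49 to 0.26, for Irf7. For the 2 genes with the fewest counts the interval left room for a change of more than 1 log2 unit in Irf5 (-1.68 to 0.46) and nearly as much in Irf4 (-0.72 to 0.89). Irf3 read 25.2, 32.1 and 23.2 CPM, while Irf4 had 54, 2 and 16 counts and Irf5 6, 11 and 5.

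Set against media, the libraries with IFNγ plus FK866 gave 5 of 8 Irf genes higher and 0 lower, where 2.76% of all genes were called higher and 0.597% lower (with the block also 5 and 0, beside 8.53% and 7.61% of all genes). This comparison uses the same media libraries as that of IFNγ alone, so the values are given only side by side. The log2 fold change was 5.43 for Irf1 (adjusted p = 4.39e-08), 1.87 for Irf2 (2.46e-05), 3.76 for Irf9 (2.45e-05) and 4.81 for Irf7 (0.0137). Irf8 was at least 409-fold higher than in media (adjusted p = 6.52e-06). As with IFNγ alone, the call for Irf7 was lost without media library 3 (4.51, adjusted p = 0.0674), without media library 5 (4.63, 0.0758) and with limma-voom (4.54, 0.123).

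To compare the genes with each other, CPM was divided by the length of each gene's merged exons. These take in the exons of every annotated transcript and can be longer than the transcript that is made. For Irf7 they are 3776 bases and cover the whole gene, so its level per kb may be understated. The order and the shares below depend on these lengths, and which transcripts were made was not tested. In media Irf3 was the most abundant, at 7.13 ± 1.83 CPM per kb (SD, n = 3), followed by Irf1 at 4.34 ± 0.833, Irf2 at 3.51 ± 0.139, Irf9 at 0.781 ± 0.293 and Irf4 at 0.444 ± 0.335. Irf5 at 0.0867 ± 0.0245 and Irf7 at 0.0656 ± 0.0443 came next, and Irf8 was at 0. Neighbours in this order overlapped in their libraries from Irf1 to Irf2, from Irf9 to Irf4, from Irf4 to Irf5 and from Irf5 to Irf7.

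With IFNγ the order was led by Irf1 at 198 ± 8.59 CPM per kb, clear of Irf2 at 12.3 ± 1.10, Irf9 at 10.5 ± 1.80 and Irf3 at 8.17 ± 1.29, which overlapped one with the next. Irf8 at 3.50 ± 0.616 and Irf7 at 2 ± 1.53 overlapped too, and Irf4 at 0.254 ± 0.229 and Irf5 at 0.224 ± 0.124 were last. The order with FK866 added was the same. The sum over the 8 genes was 16.4 ± 1.64 CPM per kb in media, 235 ± 11.4 after IFNγ and 225 ± 14.0 when FK866 was added. In libraries 3, 4 and 5 it was 227, 248 and 229 with IFNγ and 216, 241 and 218 with FK866 added, a difference that was not tested.

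The make-up of the family thus moved from a mixture to a pool made mostly of Irf1. Irf1 made up 26.6 ± 5.06% of the summed CPM per kb in media, 84.3 ± 0.509% after IFNγ and 83.5 ± 0.440% when FK866 was added. Irf3, at 43.3 ± 8.02% the largest share in media, made up 3.47 ± 0.408% with IFNγ although its own level was not called changed. Irf2 went from 21.7 ± 2.88% to 5.23 ± 0.449%. Irf9 made up 4.71 ± 1.55% in media and 4.49 ± 0.778% with IFNγ. The per-length ratio of the activator Irf1 to its antagonist Irf2 was 1.5, 1.27 and 0.957 in the media libraries and 17.4, 16.4 and 14.8 in the IFNγ libraries. With FK866 it was 17.2, 14.4 and 12.9, which overlaps the range with IFNγ alone. Within each number it was lower with FK866 than with IFNγ alone, and this difference was not tested.

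**Figure D4:**
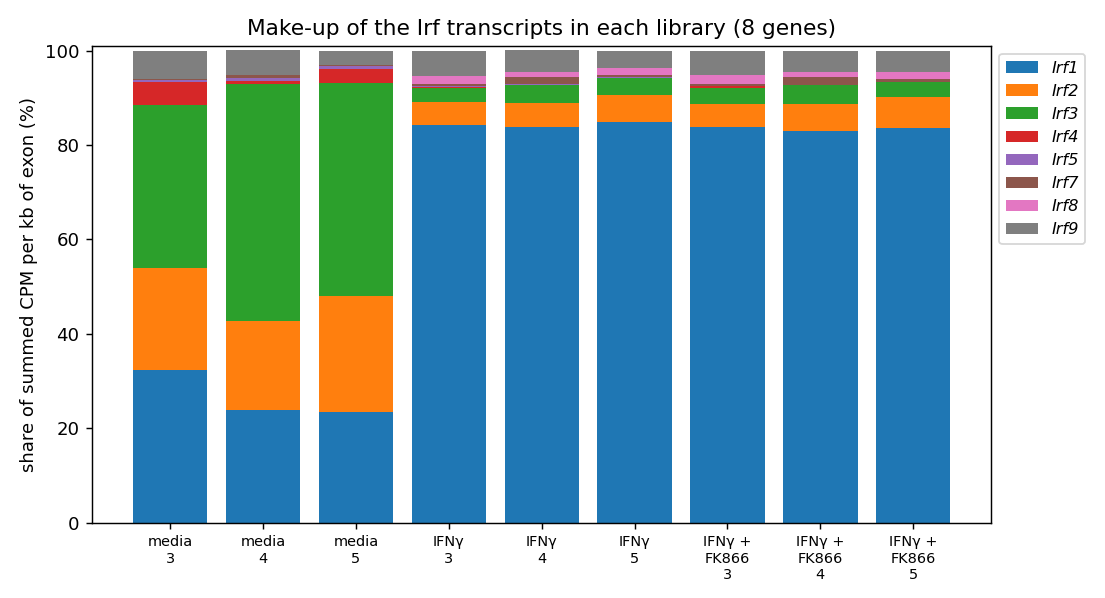
Share of each Irf gene in the summed CPM per kb of exon of the 8 genes (y axis, percent) in each of the 9 libraries (x axis). Irf3, Irf1 and Irf2 make up most of each media library, and Irf1 makes up most of each library with IFNγ, with or without FK866.

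The genes on either side of the IRFs in the pathway were read from lists written for this purpose. To set beside the counts below, 2.8% of all genes tested were called higher with IFNγ and 0.499% lower. With the block the shares were 8.12% and 6.14%. The list of receptor, JAK and STAT genes also holds the regulators Socs1, Socs3, Ptpn2, Usp18 and Pias1. Of this list, 8 of 18 tested were higher with IFNγ and 0 lower (median log2 fold change 0.39, all genes -0.008). Socs1, Socs3 and Usp18 were among the 8. The count higher was 5 with the number 4 libraries left out. With the block it was 11, and 1 was lower, Ifngr2 (-0.34, adjusted p = 0.00174). Socs1, the feedback inhibitor of the JAKs, went from 0.651 ± 0.0887 to 56.8 ± 2.57 CPM (log2 fold change 6.44, SE 0.14, adjusted p = 1.13e-08). Stat2, a partner of IRF9 in ISGF3, had a log2 fold change of 4.04 (SE 0.27, adjusted p = 1.5e-05).

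Of the sensors, adaptors and kinases that lead to IRF3, IRF5 and IRF7, 6 of 21 tested were higher and 0 lower (median 0.19). The 3 with the smallest p were the RNA sensors Ddx58, which encodes RIG-I (3.40, SE 0.18, adjusted p = 3.81e-06), and Ifih1, which encodes MDA5 (3.32, SE 0.28, 9.06e-05), and Tmem173, which encodes STING (1.47, SE 0.10, 1.5e-05). Tbk1, the kinase of IRF3, had a log2 fold change of 0.57 without the block (adjusted p = 0.293) and 0.56 with it (2.71e-06). Ikbke, the related kinase, had -0.11 (adjusted p = 1) and Mavs, the adaptor of the RNA sensors, -0.08 (adjusted p = 1). With the block 9 of the list were called higher and 2 lower, beside 8.12% and 6.14% of all genes.

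Of the proteins that bind IRFs or modify them, 4 of 19 tested were higher and 0 lower (median 0.05). Trim21, a ubiquitin ligase of several IRFs, had a log2 fold change of 4.14 (SE 0.27, adjusted p = 1.58e-05), Batf3, a partner of IRF8 in dendritic cells, 1.71 (SE 0.37, 0.0396), and Jun, a partner of BATF factors, 1.44 (SE 0.25, 0.0121). Batf2 was at 0 counts in every media library and at 46.1 ± 20.7 CPM with IFNγ. Of the partners through which IRF4 and IRF8 act in blood cells, Spi1 and Batf had few counts. Spi1, which encodes PU.1, had 29, 3 and 10 counts in the media libraries, 6, 12 and 3 after IFNγ and 12, 7 and 8 when FK866 was added, and Batf was at 0 in library 3 of every group, at 5 to 9 counts in the number 4 libraries and at 18 to 28 in the number 5 libraries. With the block 7 of this list were called higher, and 2 without media library 4 or without media library 5.

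Most of the target genes listed for IRF1 and for ISGF3 were higher. For IRF1 17 of 21 tested were higher and 0 lower, with a median log2 fold change of 6.09. The 3 with the smallest p were Socs1, given above, Nlrc5, the activator of MHC class I genes (6.65, SE 0.17, adjusted p = 1.46e-08), and the immunoproteasome subunit Psmb10 (3.39, SE 0.12, 2.17e-07). The 4 not called without the block were Il15, Casp8, Nos2 and B2m, with adjusted p of 0.116, 1, 0.483 and 0.072. With the block 20 of the 21 were called higher and 0 lower, beside 8.12% and 6.14% of all genes. For ISGF3 22 of 24 tested were higher and 0 lower (median 3.55), Irf7 and Irf9 among them. Ifit3, which encodes an antiviral RNA-binding protein, had a log2 fold change of 4.90 (SE 0.20, adjusted p = 5.32e-07), and the 2 not called, Oas1a and Oasl1, had adjusted p of 0.345 and 1. The ISGF3 count was 14 with the number 3 libraries left out and 11 with the number 4 libraries left out. With the block it was 23 of 24, and 0 were lower.

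Of a list of interferon genes, among them the type I interferons that IRF3 and IRF7 switch on, 0 of 21 had enough counts to be tested, and Ifnb1 and Ifng were at 0 counts in every library. The highest count of any of them was 6, for Ifnab in IFNγ library 3, and in the 3 IFNγ libraries where Irf7 was higher the other interferon genes had at most 1 count each. With FK866 added to IFNγ, 0 genes of any of these lists were called in either direction. Against media, IFNγ plus FK866 gave 8 genes of the receptor, JAK and STAT list higher. It also gave 6 sensors, adaptors and kinases, 3 partners, 17 IRF1 targets and 22 ISGF3 targets higher. Over all genes 2.76% were called higher in that comparison.

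The Irf genes differed between libraries of the same treatment by the number in the title. In a fit with treatment and number, the number was called for 6 of the 8 genes, where it was called for 51.8% of all genes. The adjusted p was 1.33e-07 for Irf7, 2.7e-06 for Irf4, 0.000396 for Irf3, 0.00365 for Irf9, 0.00514 for Irf8 and 0.0102 for Irf2, and 0.278 for Irf1 and 0.202 for Irf5. With 8 genes, nothing particular to the family is read from this count. What the number stands for is not stated in the labels. Its part in the results was examined only through the fits with the block and those without the libraries of a number.

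The differences were largest in Irf4 and Irf7 and went opposite ways. Relative to number 3, number 4 was lower in Irf4 by -3.61 on the log2 scale and higher in Irf7 by 2.06, while number 5 differed by -1.09 and 0.39. In every treatment group library 4 was the lowest of the 3 for Irf4 and the highest for Irf7, Irf3 and Irf5. Of all genes tested, 11.4% had library 4 highest in every group and 10.9% had it lowest. For the remaining genes the difference between number 4 and number 3 was over 1 log2 unit in Irf5, which was not called, 0.51 in Irf3, -0.52 in Irf8, -0.07 in Irf9, 0.22 in Irf2 and 0.04 in Irf1. Library 5 was the one that stood low in Irf9, by -0.43. These differences between numbers are smaller than the changes with IFNγ in Irf1, Irf2, Irf7, Irf8 and Irf9. In Irf4, and in Irf3 (0.51 against 0.2 with IFNγ), the difference between numbers was larger than that between treatments.

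The number calls of Irf2, Irf8 and Irf9 were lost in 2, 2 and 1 of the 9 fits without a single library. All were kept in the 4 fits with other settings. Irf8 had 0 counts in every media library, so its number call comes from the groups with IFNγ. The adjusted p for Irf2 was 0.0603 without IFNγ library 3 and 0.178 without IFNγ plus FK866 library 3. For Irf8 it was 0.0582 without IFNγ library 3 and 0.0575 without IFNγ plus FK866 library 4, and for Irf9 0.0522 without IFNγ library 5. Of the ISGF3 targets, 23 of 24 (95.8%) were called for the number, against 51.8% of all genes. Library 4 was highest in every group in 7 of the 24, Irf7 among them, against 11.4% of all genes tested.

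**Figure D5:**
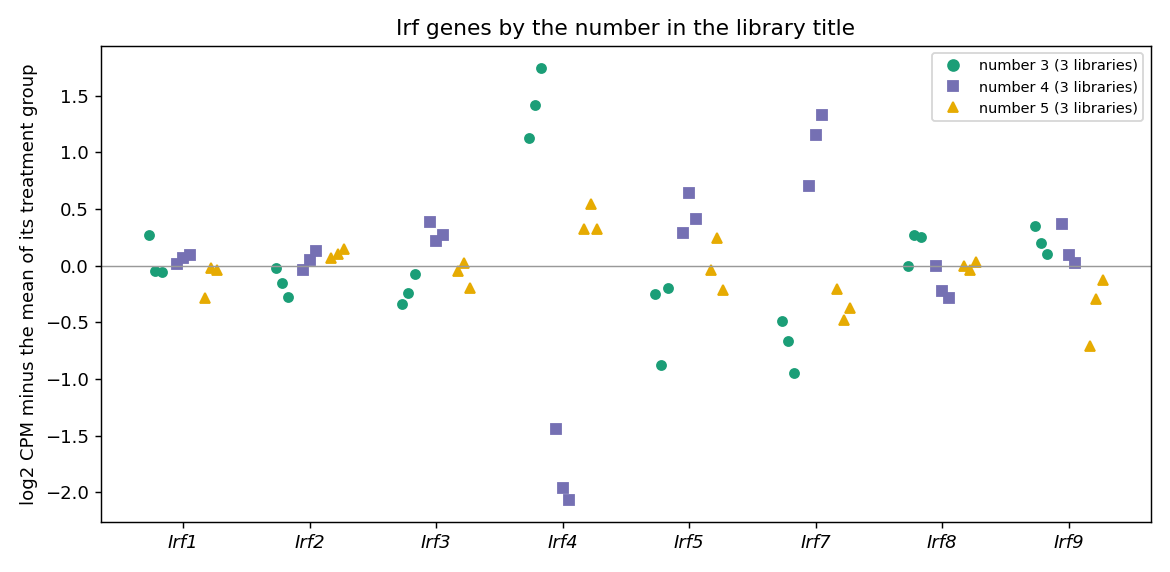
Log2 CPM of each Irf gene minus the mean of its treatment group (y axis), for the 9 libraries by title number, with the 3 points of a number in the order media, IFNγ, IFNγ plus FK866. Number 4 lies lowest in Irf4 and highest in Irf7 in all 3 groups, and the points of Irf1 lie between -0.286 and 0.27.

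For each Irf gene called with IFNγ, the protein-coding genes with the most similar log2 CPM over the 9 libraries were named among 9843 genes with a mean of at least 5 CPM. Since 3 of the libraries are media and the rest hold IFNγ, such a correlation mostly follows the treatment, and it is given as a description. For Irf1 the 3 nearest were Socs1 (Pearson r = 0.999), the immunity-related GTPase Iigp1 (0.999) and the ADP-ribosyltransferase Parp14 (0.998). For Irf2 they were the transcription factor Tcf7 (0.997), the MHC class II activator Ciita (0.996) and Tceanc2 (0.996). For Irf8 they were Gm4841 (0.999), the immunity-related GTPase Igtp (0.999) and the guanylate-binding protein Gbp6 (0.998).

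Irf9 was closest to Stat3 (0.999), the repressor Bcl6 (0.997) and Cd274, which encodes PD-L1 (0.997). Irf7 was closest to the stress-induced factor Atf3 (0.991), Tmem106a (0.990) and Pml (0.989), the organiser of nuclear bodies. The mean of each treatment group was then subtracted, so that only differences between libraries of the same treatment remained. Libraries of the same number deviated together, and 51.8% of all genes were called for the number. Such a correlation thus mostly follows the number, and it too is given as a description. Each Irf gene called for the number had a nearest gene at r of 0.972 or more. Irf9 was closest to Stat3 (r = 0.982 over 9 libraries), and Tmem106a was among the 3 nearest to Irf7 (0.979). For Irf4, which had the largest log2 difference between numbers, the nearest were Megf6 (0.996), Gm2a (0.995) and Uqcrfs1 (0.993).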

How the data were processed

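B16F10 cells were measured in 9 bulk RNA-seq libraries, 3 per group. The authors deposited whole-number counts per gene in 1 table. STAR 2.7.6a, cutadapt 1.16, featureCounts 1.6.3, DESeq2 1.30.1 and the mouse build GRCm38 are named per the submitters' processing notes. The strand setting was not given in the sources used here, nor was the handling of multi-mapped reads. If strand was ignored, reads from a gene and an overlapping one on the other strand cannot be told apart. The table names genes by Ensembl ID, and 55141 of 55487 IDs were matched to symbols. It holds 9 Irf genes; 1 of them, and some genes of the lists, are not reported here. Of the 183 listed genes, 181 were found.

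Genes were filtered on low counts with filterByExpr (15237 kept, 99.9% of counts), scaled by TMM and tested with edgeR 4.0.16 (glmQLFit, R 4.3.3) over the 3 groups, without a block, with Benjamini-Hochberg adjustment over all genes tested and a threshold of 0.05. The procedure was tested on simulated data. Log values used a prior count of 2, and likeness was Pearson's r. Alternatives were the title number as a block, DESeq2 1.42.0, limma-voom (limma 3.58.1), DESeq2-style size factors, library totals alone, the 2 groups alone, no filter, leaving out each library and, chosen after seeing the data, leaving out the 3 libraries of a number. No label states separate cultures, and the p-values then reflect only the spread between these libraries, which may be technical.

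Libraries with the same title number deviated from their group means together (r = 0.555 to 0.728 over 9 pairs of libraries, against -0.477 to -0.112 over 18 pairs with different numbers), so the numbers were taken to pair the libraries; the pairing comes from this check and the titles, and the labels do not explain it. All Irf genes were named; of each list the 3 genes with the smallest p against media, any called with FK866 and members of the partner list were named, together with genes overlapping or within 2000 bases of an Irf gene and the 3 genes most alike. Others (Tbk1, Ikbke, Mavs and the target genes not called) were named after their values were seen. The members and lists were chosen with earlier results of these data known. Start regions came from RefSeq (GRCm38.p6): 11 windows for the 8 genes, of which the parts before the annotated exons are printed. The window of Irf9 lies in an annotated exon and is not printed.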

Additional observations from a re-analysis of the deposited data

How the results depend on the processing

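The 10 Irf changes against media that were called kept their direction in all 190 alternative values, and 180 of these stayed past the threshold. The other 10 concern Irf7: besides the fits given above, the call was lost with number 3 left out (log2 4.88, adjusted p = 0.0693; with FK866 4.92, 0.0608) and number 5 left out (4.95, 0.169; 4.90, 0.176). No uncalled Irf change gained a call in 258 values, and 22 changed sign. Between IFNγ plus FK866 and IFNγ these were Irf3 at 0.04 and Irf9 at -0.05 (number 5 left out), Irf4 at -0.30 and Irf7 at 0.03 (number 3 left out), Irf4 at -0.08 (limma-voom), and Irf8 at 0.01 (number 4 left out, and library totals alone). Leaving out single libraries gave -0.01 to 0.19 for Irf2, -0.21 to 0.05 for Irf3, -1.15 to 1.01 for Irf4, -1.05 to 0.78 for Irf7, -0.17 to 0.12 for Irf8 and -0.12 to 0.12 for Irf9, and against media -0.03 to 0.35 for Irf3 and -1.95 to 0.05 for Irf4. The causes were not tested.

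Of all genes, 427 were higher with IFNγ than in media, 1237 with the number as a block, and 254, 148 and 276 with number 3, 4 or 5 left out (287 to 420 without single libraries). Lower were 76, against 936 with the block, 157 with DESeq2, 21, 6 and 21 by number left out, and 26 to 68. With FK866 against IFNγ, 0 became 2 higher and 1 lower with the block. With IFNγ plus FK866 against media 421 were higher, against 1299 with the block, 147 with number 4 left out and 284 to 406. Lower were 91, against 1160 with the block, 175 with DESeq2, 59 with those groups alone, 40, 4 and 17 by number left out, and 34 to 75. The block changed the call of no Irf gene. Every alternative called 4 to 5 Irf genes higher against media. Depth limits Irf5, Irf4 and the media level of Irf7, which rest on few counts.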
